A study of Mus musculus with 24 samples.

Results

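The TNF receptor superfamily was represented by 10 genes of the 23420 listed in every library, namely Fas, Tnfrsf1a, Tnfrsf1b, Tnfrsf4, Tnfrsf8, Tnfrsf9, Tnfrsf14, Tnfrsf18, Tnfrsf25 and Cd27. They were taken by gene symbol, and no measured value enters that rule. Each encodes a cell surface receptor for a ligand of the TNF family. Receptors with a death domain in their cytoplasmic tail, such as FAS, TNFR1 (Tnfrsf1a) and DR3 (Tnfrsf25), can recruit adaptors that lead to caspase activation or to NF-kB signalling. The others bind TRAF adaptors, and several of them, including CD27, OX40 (Tnfrsf4), CD137 (Tnfrsf9), GITR (Tnfrsf18) and CD30 (Tnfrsf8), act as co-stimulatory receptors of T cells.

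The 24 libraries came from CD8+ T cells of 6 mice, of which 3 are labelled Tcf7 cKO (mice 1 to 3) and 3 wildtype (here WT, mice 4 to 6), with samples taken at 0, 4, 8 and 24 h. The cKO mice were E8i-cre+, Tcf7FL/FL and OTI+. The WT mice were E8i-cre-, Tcf7FL/FL and OTI+, so every animal carried both floxed Tcf7 alleles and the transgenic OT-I T cell receptor, and the cre transgene cannot be told apart from the deletion. Tcf7 encodes the transcription factor TCF1, and E8i is an enhancer of the Cd8a locus that is active in mature CD8 T cells. The 0 h sample was taken before plating. The later samples came from cells on plates coated with anti-CD3/anti-CD28 at 1 ug/mL in the presence of murine IL2 at 6 ng/mL, and 1000 sorted cells went into each library. Values of single mice are given in the order of mice 1, 2 and 3 for cKO and mice 4, 5 and 6 for WT.

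Each library held between 5846265 and 9700397 expected counts, the estimated reads of all genes. On the first principal component the 4 h library of cKO mouse 3 lay nearer to 0 h than the other 4 h libraries, and the 8 h libraries of cKO mouse 2 and WT mouse 5 lay nearer to 24 h than the other 8 h libraries. The summed TPM (a level scaled to a fixed library total and corrected for gene length) of 6 CD8 T cell markers was between 1045 and 6119 in cKO and between 959 and 5749 in WT. The summed markers of CD4 or regulatory T cells, NK cells and macrophages were at most 2.42 TPM in any library, and those of dendritic cells at most 6.76 TPM. A B cell list reached 52.7 TPM in cKO cells and 36.6 TPM in WT, of which nearly all was Cd79b, while Ms4a1 was at most 0.68 TPM in cKO cells and 0.58 TPM in WT. The erythroid list was at 21.4 TPM in 1 cKO library at 4 h and at most 0.42 TPM in any WT library. Gene-level Tcf7 averaged 695, 262, 103 and 37.2 TPM over 0, 4, 8 and 24 h in the libraries labelled cKO and 540, 192, 73.8 and 69.4 TPM in those of WT mice. The log2 change, the fitted log2 fold change of cKO over WT, was 0.33, 0.40 and 0.43 at 0, 4 and 8 h, not called (adjusted p = 0.386, 0.113 and 0.185), and −0.90 at 24 h, called lower in cKO (adjusted p = 0.000221). The single libraries labelled cKO lay above those of WT at 0 and 4 h and overlapped with them at 8 h. Those counts include reads from outside the floxed part, so they do not check the deletion and the groups are named by their labels.

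By the GENCODE annotation of GRCm38, 7 of the 10 genes lie on chromosome 4 between 145213463 and 156028895. Tnfrsf1b and Tnfrsf8 are 20266 bases apart there, and Tnfrsf4 and Tnfrsf18 are 9551 bases apart. Cd27 and Tnfrsf1a are on chromosome 6 with 112351 bases between them, and Fas is on chromosome 19 (34290666 to 34327772, plus strand). An annotated antisense gene overlaps Tnfrsf18, Vamp1 overlaps Cd27 and Camta1 overlaps Tnfrsf9, all on the opposite strand. Smart-seq2 does not keep strand, so reads in the shared stretches cannot be assigned to a strand.

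Before activation the receptor RNA pool was mainly Cd27, and over 24 h the leading gene changed to Tnfrsf9 and then to Tnfrsf4. At 0 h Cd27 made up 58.2% of the summed mean TPM of the 10 genes in cKO and 61.4% in WT, followed by Tnfrsf18 with 18.3% in cKO and 16.5% in WT. At 4 h Tnfrsf9 led in cKO with 30.2%, while in WT Tnfrsf18 with 24.6% and Tnfrsf9 with 24.4% overlapped in their libraries. At 8 h Tnfrsf9 led in both genotypes with 36.4% in cKO and 31.0% in WT, and its libraries lay above those of Tnfrsf18. At 24 h Tnfrsf4 led with 37.3% in cKO and 37.8% in WT, above Tnfrsf18 in every library. Below Tnfrsf18 the next place was held by Tnfrsf9 in cKO, where its libraries overlapped with those of Cd27, and by Cd27 in WT, where they did not. The summed level over 0, 4, 8 and 24 h was 558 ± 24.2, 1044 ± 71.6, 1038 ± 73.2 and 939 ± 41.4 TPM in the cKO mice, against 536 ± 11.9, 891 ± 48.2, 941 ± 55.0 and 822 ± 35.1 TPM in the WT mice (SD, n = 3 mice each). Levels are relative to all RNA in a library, so a smaller share of expressing cells and less RNA per cell cannot be told apart.

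**Figure D1:**
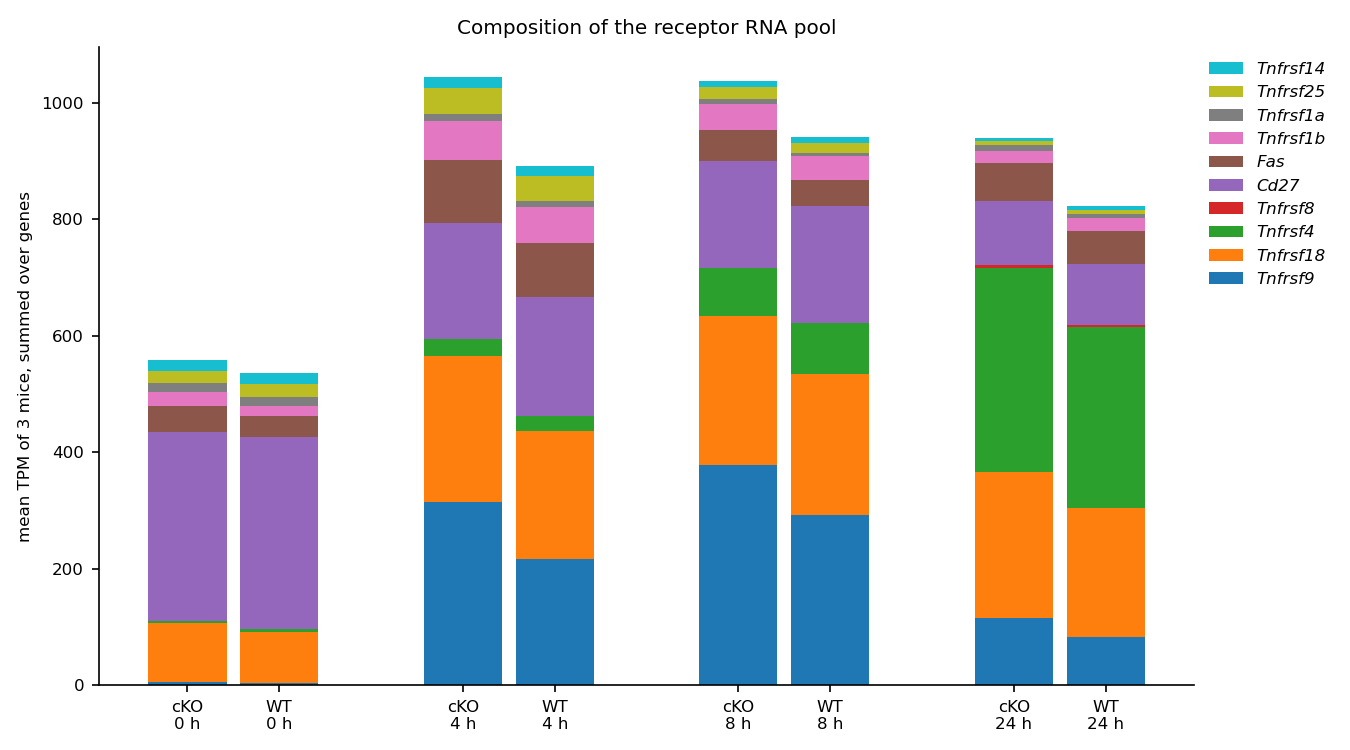
Mean TPM of 3 mice for each of the 10 receptor genes, stacked, in cKO and WT at 0, 4, 8 and 24 h. The bar of Cd27 is the tallest part at 0 h, Tnfrsf9 at 8 h and Tnfrsf4 at 24 h in both genotypes.

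Most of the family changed with activation, as did most of all tested genes. Genes were called at an adjusted p under 0.05 by edgeR's quasi-likelihood test with Benjamini-Hochberg adjustment over all 11470 genes that passed a filter on low counts, which all 10 members did. For Tnfrsf8 this rested on the 24 h libraries alone. The counts of members called higher at 24 h, against 0 h or 8 h, include Tnfrsf8. Its own call there is no separate support, since the filter kept it through those same libraries. At 4 h against 0 h, 6 of the 10 were called higher and 2 lower in cKO, where 29.6% of all tested genes were higher and 27.6% lower. WT gave 6 and 2 as well, beside 30% of all genes higher and 29.1% lower. At 8 h against 0 h, 5 were higher (33.1% of all genes) and 3 lower (32.4%) in cKO, and 5 higher (33.4%) and 3 lower (34%) in WT. At 24 h against 0 h, 5 were higher (37.3%) and 4 lower (39%) in cKO, and 6 higher (36.9%) and 4 lower (40.1%) in WT. Either way, 57.2%, 65.6% and 76.3% of all genes were called at 4, 8 and 24 h against 0 h in cKO. In WT these shares were 59%, 67.4% and 77%. Between neighbouring times, 8 h against 4 h gave 1 higher (20.8%) and 4 lower (19.6%) in cKO, and 2 higher (21.9%) and 5 lower (19.7%) in WT. Without mouse 6 the WT step to 8 h had 4 members called in place of 7. The step of 24 h against 8 h gave 3 higher (25.2%) and 5 lower (32.1%) in cKO, and 2 higher (24.7%) and 5 lower (34.1%) in WT. The median log2 change of the 10 genes at 4 h against 0 h was 1.29 in cKO and 1.21 in WT, beside −0.04 over all genes in WT and a value nearer to 0 in cKO. At 24 h against 0 h it was 0.30 in cKO and 0.60 in WT, beside −0.07 and −0.08 over all genes in cKO and in WT. Tnfrsf8 lies above these medians also at the bound given for it further on, so that bound could not move them.

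**Figure D2:**
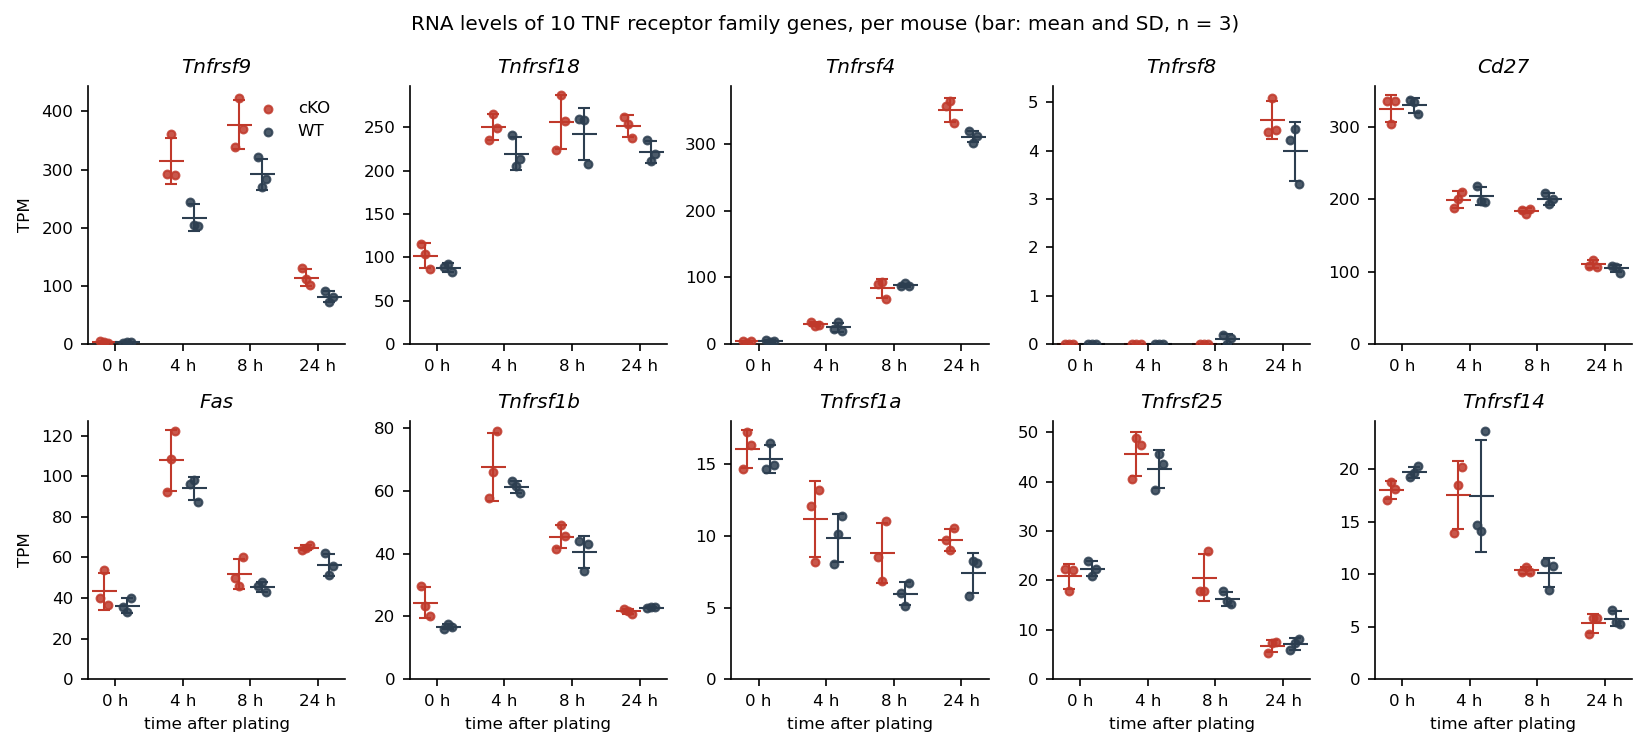
TPM of the 10 receptor genes in each mouse at 0, 4, 8 and 24 h, cKO left of WT, with the mean and SD of 3 mice. Each panel has its own linear axis from 0. Tnfrsf9 is high at 4 and 8 h, Tnfrsf4 and Tnfrsf8 are highest at 24 h, and Cd27 is highest at 0 h.

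Tnfrsf9 (chromosome 4, 150914562 to 150946102, plus strand), which encodes the inducible co-stimulatory receptor CD137, had the largest increase of the family at 4 h. Before plating its level was 6.23, 4.57 and 2.50 TPM in cKO cells and 2.83, 3.97 and 3.49 TPM in WT. At 4 h its level was 293, 361 and 291 TPM in cKO cells and 244, 205 and 202 TPM in WT. Every 4 h library thus lay far above every 0 h library. The log2 change of 4 h over 0 h was 6.17 in cKO (approximate standard error, SE, 0.21, adjusted p = 1.51e-16) and 6.06 in WT (SE 0.221, adjusted p = 4.61e-16), and all 6 mice rose. Levels at 8 h were 339, 423 and 370.1 TPM in cKO cells and 322, 269.7 and 284 TPM in WT. This further step was called in WT (log2 0.48, adjusted p = 0.0155) and not in cKO (0.30, adjusted p = 0.118), and the WT call was lost without mouse 5 or 6 and in limma on log2 TPM (adjusted p up to 0.166). Tnfrsf9 then fell, to 130.2, 111 and 102 TPM in cKO mice and to 91.3, 73.2 and 81.5 TPM in WT mice at 24 h (log2 of 24 h over 8 h −1.77 in cKO and −1.93 in WT).

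Promoter windows, each from 250 bases before to 50 bases after an annotated RefSeq start on GRCm38.p6, were found for all 10 genes, 12 windows in all because Tnfrsf9 and Tnfrsf25 have 2 starts each. They were searched on both strands for the NF-kB consensus, the AP-1 site TGANTCA and the TCF/LEF cores CTTTGA and CTTTGT. Shown are 4 of them: Tnfrsf9 and Tnfrsf8 as the genes with the largest increase at 4 h and the latest appearance, Tnfrsf18 as one with a single called step, and Cd27 as the leading gene at 0 h. Capitals mark motif matches, written 5′ to 3′ on the strand of the gene.
Tnfrsf9 (downstream start), chr4:150927749-150928048, plus strand: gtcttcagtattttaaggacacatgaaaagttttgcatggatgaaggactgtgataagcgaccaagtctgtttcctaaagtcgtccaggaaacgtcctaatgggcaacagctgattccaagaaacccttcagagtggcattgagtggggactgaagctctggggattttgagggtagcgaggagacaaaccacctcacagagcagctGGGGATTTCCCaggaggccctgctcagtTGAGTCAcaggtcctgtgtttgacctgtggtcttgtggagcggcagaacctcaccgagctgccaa
Tnfrsf8, chr4:145315115-145315414, minus strand: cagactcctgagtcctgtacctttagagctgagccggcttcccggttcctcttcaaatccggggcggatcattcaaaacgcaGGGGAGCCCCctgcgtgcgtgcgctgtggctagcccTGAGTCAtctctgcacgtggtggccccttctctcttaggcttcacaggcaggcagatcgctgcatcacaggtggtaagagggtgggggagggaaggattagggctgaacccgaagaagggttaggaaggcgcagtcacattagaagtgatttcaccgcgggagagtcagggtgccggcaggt
Tnfrsf18, chr4:156026072-156026371, plus strand: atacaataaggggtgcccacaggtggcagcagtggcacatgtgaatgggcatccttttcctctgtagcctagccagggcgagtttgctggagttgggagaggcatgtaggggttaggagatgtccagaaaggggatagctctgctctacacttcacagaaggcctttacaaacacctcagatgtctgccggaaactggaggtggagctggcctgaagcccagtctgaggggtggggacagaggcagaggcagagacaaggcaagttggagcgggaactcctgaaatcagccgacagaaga
Cd27, chr6:125236978-125237277, minus strand: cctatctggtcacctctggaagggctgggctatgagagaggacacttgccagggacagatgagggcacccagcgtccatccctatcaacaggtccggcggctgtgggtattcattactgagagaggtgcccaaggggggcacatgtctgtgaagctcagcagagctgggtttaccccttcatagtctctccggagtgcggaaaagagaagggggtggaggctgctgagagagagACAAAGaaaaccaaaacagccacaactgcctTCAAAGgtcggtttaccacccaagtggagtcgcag
In the Tnfrsf9 window the capitals are 2 overlapping NF-kB matches that begin 43 and 42 bases before the start and, 15 bases before it, the AP-1 match TGAGTCA, with no TCF/LEF match. The window at the upstream Tnfrsf9 start, chr4:150919905-150920204, is not shown and held 2 TCF/LEF matches and no match of the other motifs. The Tnfrsf8 window holds 1 NF-kB match and the same AP-1 heptamer, the Cd27 window holds 2 TCF/LEF matches, and the Tnfrsf18 window holds none of the 3 motifs. Over the 12 windows, 2 held an NF-kB match, 3 an AP-1 match and 7 a TCF/LEF match. Of 32851 mouse promoter windows of the same length, 4.51% held the NF-kB consensus, 7.81% the AP-1 site and 31.2% a TCF/LEF core. A match describes letters in the window and does not show binding.

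Tnfrsf18 (chromosome 4, 156026164 to 156028895, plus strand), which encodes GITR, rose at 4 h and had no called step after it. It was at 115, 104 and 86.4 TPM in cKO cells and at 89.5, 92.5 and 83.1 TPM in WT at 0 h. At 4 h its level was 235, 265 and 249 TPM in cKO cells and 241, 205 and 213 TPM in WT, a log2 change of 1.36 in cKO (SE 0.118, adjusted p = 3.23e-12) and 1.39 in WT (SE 0.12, adjusted p = 2.51e-12). No 4 h library overlapped with a 0 h library. The 8 h values of 224, 286 and 257 TPM in cKO cells and 259.8, 258 and 207 TPM in WT overlapped with those at 4 h. At 24 h its level was 262, 253 and 237 TPM in cKO cells and 235, 211 and 219 TPM in WT, and neither the 8 h nor the 24 h step was called in either genotype (log2 between −0.22 and 0.19).

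Tnfrsf4 (chromosome 4, 156013843 to 156016612, plus strand), which encodes OX40 and lies beside Tnfrsf18, rose at every step. Over 0, 4, 8 and 24 h its mean was 4.20, 29.8, 83.6 and 351 TPM in cKO cells and 4.70, 25.5, 88.5 and 311 TPM in WT. The single values at 0 h were 5.08, 2.60 and 4.91 TPM in cKO cells and 5.80, 3.83 and 4.46 TPM in WT, and those at 24 h were 357, 364 and 331 TPM in cKO cells and 319, 302 and 311 TPM in WT. The lowest 24 h library was thus far above the highest library of any earlier time. The steps to 4, 8 and 24 h had log2 changes of 2.91, 1.54 and 2.02 in cKO and of 2.54, 1.86 and 1.71 in WT, each called, with a total of 6.47 in cKO (SE 0.192) and 6.10 in WT (SE 0.193).

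Tnfrsf8 (chromosome 4, 145267137 to 145315164, minus strand), which encodes CD30, appeared late. It had no count in any library at 0 or 4 h, nor in cKO at 8 h, and it had 1, 0 and 1 counts in WT at 8 h. At 24 h it had 36, 47 and 38 counts in cKO (4.38, 5.08 and 4.42 TPM) and 37, 41 and 28 counts in WT (4.21, 4.45 and 3.30 TPM). All 6 libraries at 24 h therefore held it, at the lowest mean of the family. Against a floor of 3 counts over the 3 libraries of a group, 24 h was at least 38.6-fold higher than 0 h in cKO and at least 27.5-fold higher in WT. In cKO 24 h was at least 28.2-fold higher than 8 h, and in WT the ratio of 24 h to 8 h was 37.7 with a 95% counting interval of 10.2 to 315. Such an interval covers only the counting of reads, pooled over the 3 libraries of a group. It leaves out differences between mice. It also leaves out repeated reads of the same molecule, which cannot be told apart because Smart-seq2 reads carry no molecular identifiers. The lower bounds take the 24 h counts as free of error.

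Cd27 (chromosome 6, 125232622 to 125237010, minus strand), the constitutive co-stimulatory receptor of naive T cells, fell in 2 steps. At 0 h its level was 336, 303 and 335 TPM in cKO cells and 337, 334 and 318 TPM in WT. At 4 h the levels were 187, 201 and 209.9 TPM in cKO cells and 218, 197 and 196 TPM in WT, with log2 changes of −0.63 in cKO (SE 0.0821) and −0.61 in WT (SE 0.0823), and at 8 h they were 185, 179.9 and 187 TPM in cKO cells and 209, 193 and 199.9 TPM in WT. The 8 h step was not called in either genotype. At 24 h Cd27 was at 108, 117 and 106 TPM in cKO cells and at 108, 107 and 98.2 TPM in WT. This second fall had a log2 change of −0.78 in cKO and −1.04 in WT, and no 24 h library reached the lowest 8 h library.

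Tnfrsf14 (chromosome 4, 154921933 to 154928563, minus strand), which encodes HVEM, a receptor for LIGHT that also binds the inhibitory receptor BTLA, fell later than Cd27. It ranged over 17.1 to 18.8 TPM in cKO cells and 19.2 to 20.3 TPM in WT at 0 h and was not called at 4 h (log2 0.03 in cKO and −0.10 in WT). At 24 h it ranged over 4.30 to 5.87 TPM in cKO cells and 5.23 to 6.59 TPM in WT, a log2 change against 0 h of −1.67 in cKO (SE 0.245, adjusted p = 1.64e-07) and −1.73 in WT (SE 0.244, adjusted p = 6.75e-08).

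The 2 receptors for TNF moved in opposite directions at 4 h. Tnfrsf1b (chromosome 4, 145213463 to 145246870, minus strand), which encodes TNFR2 and has no death domain, was at 57.6, 66.1 and 79.2 TPM in cKO cells and at 63.2, 61.6 and 59.4 TPM in WT at 4 h. At 0 h its level was 29.7, 23.4 and 20.0 TPM in cKO cells and 16.0, 17.6 and 16.5 TPM in WT, so the log2 change of 4 h over 0 h was 1.55 in cKO (SE 0.115) and 1.98 in WT (SE 0.119). It then fell at both later steps, to 41.6, 49.1 and 45.6 TPM in cKO cells and 43.9, 34.5 and 43.0 TPM in WT at 8 h, and to 22.3, 21.8 and 20.7 TPM in cKO cells and 22.5, 22.9 and 22.9 TPM in WT at 24 h. The 24 h level was called above the 0 h level in WT (log2 0.50, adjusted p = 0.000281) and was not called in cKO (−0.10, adjusted p = 0.433). Tnfrsf1a (chromosome 6, 125349362 to 125362484, plus strand), which encodes the death domain receptor TNFR1, had a log2 change of −0.45 in cKO (adjusted p = 0.033) and −0.56 in WT (adjusted p = 0.0109) at 4 h against 0 h. The cKO call was lost without mouse 2 and with no filter on low counts, and the WT call without mouse 4 or 5. Its 24 h means were 9.74 TPM in cKO cells and 7.38 TPM in WT, and its 0 h means were 16.1 TPM in cKO cells and 15.4 TPM in WT, a log2 change of −0.64 in cKO and −1.01 in WT.

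Both other death domain receptors had a peak at 4 h. Fas, the receptor through which FAS ligand triggers apoptosis, was at 39.8, 53.7 and 36.4 TPM in cKO cells and at 35.7, 33.0 and 40.0 TPM in WT at 0 h. At 4 h its level was 92.5, 109 and 122 TPM in cKO cells and 96.2, 98.4 and 87.4 TPM in WT, above every 0 h library (log2 1.43 in cKO, SE 0.127, and 1.49 in WT, SE 0.131). It then fell to 49.8, 45.8 and 60.2 TPM in cKO cells and to 45.7, 47.9 and 42.8 TPM in WT at 8 h, a log2 change against 4 h of −1.04 in cKO and −1.02 in WT. At 24 h its level was 63.7, 64.5 and 66.3 TPM in cKO cells and 62.1, 51.5 and 55.5 TPM in WT. This last step was called in cKO (log2 0.31, adjusted p = 0.0369) and not in WT (0.22, adjusted p = 0.136). The cKO call was lost without mouse 1 or 2 and without the 8 h libraries of mice 2 and 5 (adjusted p up to 0.106), and the WT step was called in 10 of 17 alternatives. Tnfrsf25 (chromosome 4, 152115934 to 152120119, plus strand), which encodes DR3, had mean levels over 0, 4, 8 and 24 h of 20.8, 45.6, 20.5 and 6.71 TPM in cKO cells and of 22.3, 42.5, 16.3 and 7.05 TPM in WT. Its steps to 4, 8 and 24 h had log2 changes of 1.22, −1.12 and −1.64 in cKO and of 1.02, −1.33 and −1.30 in WT, each called. Unlike Fas, which at 24 h stayed above its 0 h level (log2 0.70 in cKO and 0.70 in WT), Tnfrsf25 ended below it (−1.55 in cKO and −1.62 in WT).

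Between the genotypes, 1 member was called, at 1 time. Tnfrsf1b was higher in cKO at 0 h, with a log2 change of 0.52 (SE 0.118, adjusted p = 0.029), and its 3 cKO libraries given above lay above the 3 WT libraries. At 0 h, 0.445% of all genes were called. The B cell gene Cd79b was at 41.0 to 52.4 TPM in cKO cells and 32.4 to 35.6 TPM in WT at this time, while the B cell markers Ms4a1 and Pax5 were each at most 0.30 TPM in cKO cells and 0.23 TPM in WT. The summed markers of CD4 or regulatory T cells ranged over 0.43 to 1.96 TPM in cKO and 0.11 to 0.41 TPM in WT, and those of CD8 T cells over 5946 to 6119 TPM in cKO and 5406 to 5749 TPM in WT, again without overlap. The NK cell, macrophage, dendritic cell and erythroid lists overlapped between the genotypes at 0 h. The part of these markers in the difference of Tnfrsf1b was not tested. The call was lost with only the 0 h groups in the fit, in limma on log2(TPM + 1) and without mouse 1, 2, 4, 5 or 6 (adjusted p up to 0.377). At 24 h Tnfrsf1b had a log2 change of −0.08 (adjusted p = 1), with every cKO library slightly below every WT library. The difference between the 24 h and the 0 h genotype effects was −0.60 (SE 0.165, adjusted p = 0.434) and was called in 1 alternative, with no filter on low counts.

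No member was called between genotypes at 4, 8 or 24 h by edgeR with its low-count filter and all groups in 1 fit, where 0.82%, 0.183% and 0.105% of all genes were called. At an unadjusted p under 0.05 there were 1, 3 and 2 of the 10 members at 4, 8 and 24 h, beside 11.8%, 9.93% and 3.68% of all genes. DESeq2 called 1 member at 4 h and 0 at 8 and 24 h, and limma on log2(TPM + 1) called 0 at each. The shares of all genes given are those of edgeR. Shares for DESeq2 and limma are not given, here or for the lists further on, so counts by these tools stand without a background. The member called by DESeq2 was Tnfrsf9, which had log2 changes of 0.38, 0.50, 0.32 and 0.48 at 0, 4, 8 and 24 h (SE 0.288, 0.152, 0.151 and 0.155), with adjusted p of 0.867, 0.153, 0.479 and 0.672. The 3 cKO libraries lay above the 3 WT libraries at 4, 8 and 24 h and overlapped at 0 h. At 4 h Tnfrsf9 was also called with no filter on low counts, with only the groups compared and without mouse 1 or 3. Its adjusted p at 4 h over all alternatives ran from 0.000379 to 0.519. At 24 h Tnfrsf9 was called with no filter on low counts and with only the groups compared, and its adjusted p there ran from 0.00728 to 1. Some marker lists separated the genotypes in the same libraries, and others overlapped. At 4 h the CD4 or regulatory T cell list was at 0.45 to 0.72 TPM in cKO cells and 0.07 to 0.23 TPM in WT, and the dendritic cell list at 4.87 to 6.76 TPM in cKO cells and 2.95 to 3.35 TPM in WT. Most of the dendritic cell list was Xcr1, at 3.3 to 6.01 TPM in cKO cells and 1.72 to 2.63 TPM in WT. Its gene Flt3 went the other way, at most 0.07 TPM in cKO cells and 0.19 to 0.52 TPM in WT. The NK cell list at 4 h was at 0.89 to 1.15 TPM in cKO cells and 0.18 to 0.68 TPM in WT. Of its genes Klrb1c did not overlap (0.72 to 1.15 TPM in cKO cells and 0.1 to 0.52 TPM in WT). Ncr1 overlapped, at most 0.17 TPM in cKO cells and 0.58 TPM in WT. The B cell list overlapped at 4 h (5.02 to 6.53 TPM in cKO cells and 5.15 to 7.88 TPM in WT), as did the macrophage and erythroid lists. At 8 h the B cell list was at 3.19 to 5.55 TPM in cKO cells and 0.91 to 2.65 TPM in WT, while the CD4 or regulatory T cell, NK cell, macrophage, dendritic cell and erythroid lists overlapped. The CD8 T cell list was higher in every cKO library at 4 h (2282 to 2378 TPM in cKO and 1955 to 2146 TPM in WT) and at 8 h (1391 to 1627 TPM in cKO and 1150 to 1352 TPM in WT). The part of these lists in the difference of Tnfrsf9 was not tested.

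**Figure D3:**
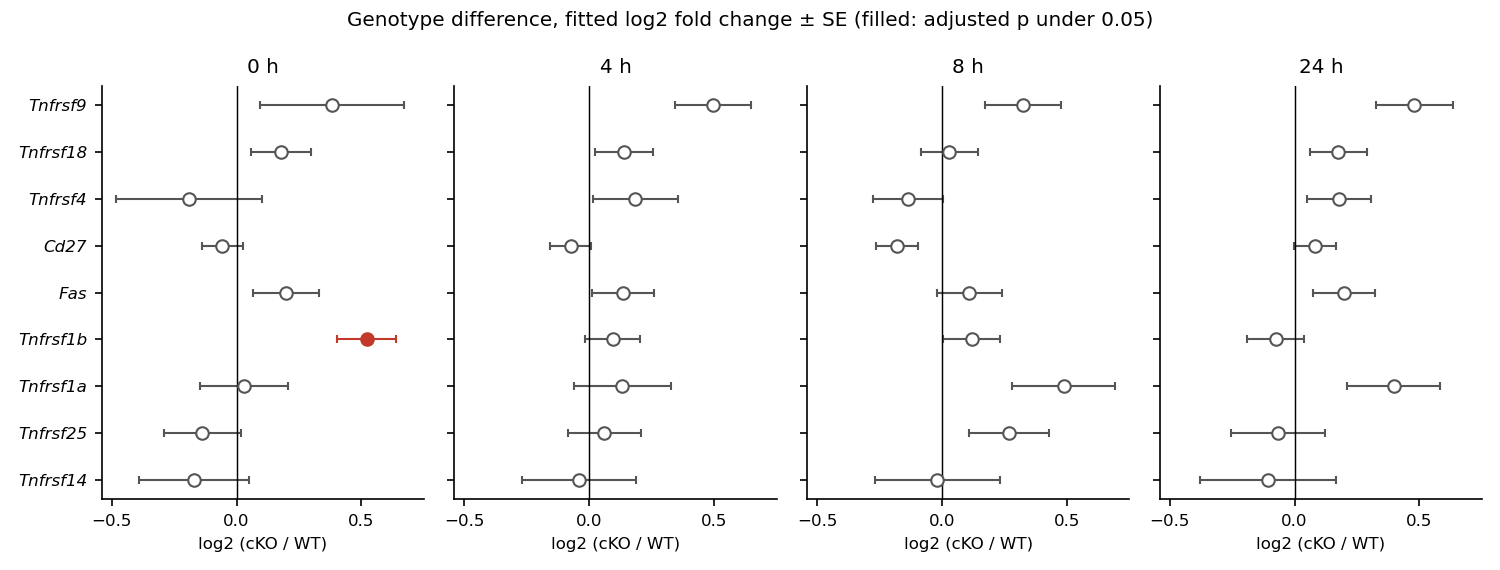
Fitted log2 change of cKO over WT with its SE for 9 receptor genes at 0, 4, 8 and 24 h. Tnfrsf8 is left out because most of its groups had no count. The 1 filled point, Tnfrsf1b at 0 h, is the only one called, and the points of Tnfrsf9 lie at 0.32 to 0.50 on the log2 scale.

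At 24 h more members were without overlap between the genotypes than at other times. In CPM, counts scaled to library size with TMM factors, 2 members did not overlap at 0 h (13.5% of all genes), 1 at 4 h (15.9%), 3 at 8 h (10.5%) and 7 at 24 h (13.5%). The 6 that were higher in cKO at 24 h were Fas, Tnfrsf1a, Tnfrsf4, Tnfrsf9, Tnfrsf18 and Cd27, beside 7.53% of all genes, and Tnfrsf1b was lower, beside 5.92%. In the same libraries the CD8 T cell list was at 1045 to 1146 TPM in cKO cells and 959 to 1004 TPM in WT, without overlap. The CD4 or regulatory T cell list overlapped, at 0.96 to 1.19 TPM in cKO cells and 0.36 to 1.0 TPM in WT. Of its genes Foxp3 did not overlap (0.83 to 0.86 TPM in cKO cells and 0.14 to 0.51 TPM in WT), while Cd4 and Zbtb7b did. The B cell, NK cell, macrophage and dendritic cell lists overlapped as well. The part of these markers was not tested. With DESeq2 size factors or in TPM the libraries of Cd27 overlapped, which left 5 higher and 1 lower. The fitted log2 changes of the 6 genes ran from 0.08 for Cd27 to 0.48 for Tnfrsf9, and none was called. The median of the 10 members at 24 h was 0.18, against 0.01 over all genes. At 8 h the members without overlap were Tnfrsf1a and Tnfrsf9, higher in cKO, and Cd27, lower in cKO. Tnfrsf1a at 8 h had a log2 change of 0.49 (SE 0.205, adjusted p = 0.409), with 8.55, 6.82 and 11.1 TPM in cKO cells and 6.02, 5.13 and 6.73 TPM in WT.

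With the low-count filter, edgeR called no difference between a member's genotype effect at 4, 8 or 24 h and that at 0 h, where 0.00872%, 0.00872% and 0.0174% of all genes were called. With no filter it called Tnfrsf1b at 24 h (adjusted p = 0.013). At an unadjusted p under 0.05 there was 1 member at each of the 3 times, Tnfrsf1b, beside 7.13%, 7.95% and 4.3% of all genes, and DESeq2 and limma on log2(TPM + 1) each called 0.

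The transcript length that RSEM assigned to Fas, a mean over its 2 listed transcripts weighted by their estimated share, did not overlap between genotypes at 0 h. It ranged over 1413 to 1425 bases in cKO (mean 1417 ± 6.47, SD, n = 3) and over 1448 to 1451 bases in WT (mean 1450 ± 1.86, SD, n = 3). Such a lack of overlap was found for 7.17% of the 2651 genes whose assigned length varied. At 4, 8 and 24 h the Fas lengths of the genotypes overlapped. Tnfrsf9, Tnfrsf18 and Cd27 were the other members whose assigned length varied. Their lengths overlapped between the genotypes at 0, 4, 8 and 24 h. A shorter mean length means a larger estimated share of the shorter transcript.

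**Figure D4:**
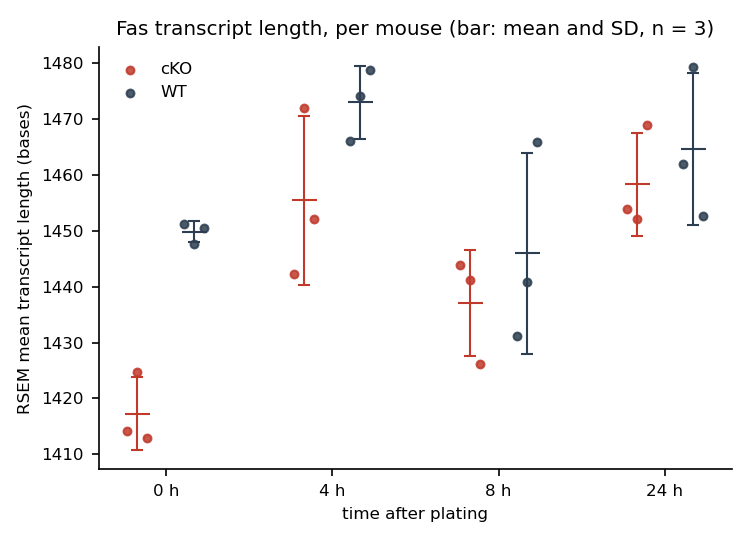
RSEM mean transcript length of Fas in bases in each mouse at 0, 4, 8 and 24 h, cKO left of WT, with the mean and SD of 3 mice. The axis does not start at 0. The cKO mice lie at 1413 to 1425 bases at 0 h, below the 3 WT mice.

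Of the ligands of these receptors, the one with a genotype difference at all 4 times was Fasl, the ligand of FAS. Over 0, 4, 8 and 24 h its level was 13.1 ± 2.15, 10.6 ± 1.66, 16.6 ± 1.69 and 4.87 ± 0.384 TPM in cKO cells and 0.293 ± 0.292, 0.400 ± 0.190, 0.447 ± 0.253 and 0.623 ± 0.134 TPM in WT (SD, n = 3). Set against WT, the cKO log2 changes were 5.44, 4.60, 5.04 and 2.96, and no adjusted p was above 2.42e-06. Together the 3 WT libraries held 7, 9, 12 and 20 counts of Fasl at 0, 4, 8 and 24 h, so the size of these changes is imprecise. Over the alternatives it ran from 3.46 to 6.59, 3.04 to 5.10, 3.62 to 5.41 and 1.86 to 3.09, and Fasl was called in every alternative at all 4 times. Fas itself, in the same libraries, had log2 changes of 0.20, 0.13, 0.11 and 0.20, none of them called.

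The ligands followed different courses. Tnf, the ligand of both TNF receptors, was at 7.72, 1162, 918 and 305 TPM over 0, 4, 8 and 24 h in cKO and at 11.3, 1036, 883 and 235 TPM in WT. Lta, which encodes lymphotoxin alpha and binds the same receptors, was at 12.6, 266, 364 and 325 TPM in cKO cells and at 12.3, 212, 409 and 298 TPM in WT. Tnfsf14, which encodes LIGHT, a ligand of HVEM, was at 495 TPM in cKO cells and 531 TPM in WT at 4 h, and at 4.22 TPM in cKO cells and 7.90 TPM in WT at 0 h. So LIGHT RNA rose (log2 6.90 in cKO and 6.16 in WT) at a time when that of its receptor was not called as changed. Tnfsf9, the ligand of CD137, peaked at 68.7 TPM in cKO cells and 73.5 TPM in WT at 4 h and was at 24.3 TPM in cKO cells and 15.8 TPM in WT at 24 h. Cd70, the ligand of CD27, was at 55.9 TPM in cKO cells and 36.5 TPM in WT at 24 h and was listed at 0 in all 3 cKO libraries at 0 h, against a mean of 0.0867 TPM in WT, while Cd27 fell. Tnfsf8, the ligand of CD30, was present from 0 h (13.1 TPM in cKO cells and 16.4 TPM in WT), and its receptor appeared at 24 h. The ligands of OX40 (Tnfsf4) and of DR3 (Tnfsf15) had means of at most 3.32 and 1.19 TPM over the 8 groups.

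**Figure D5:**
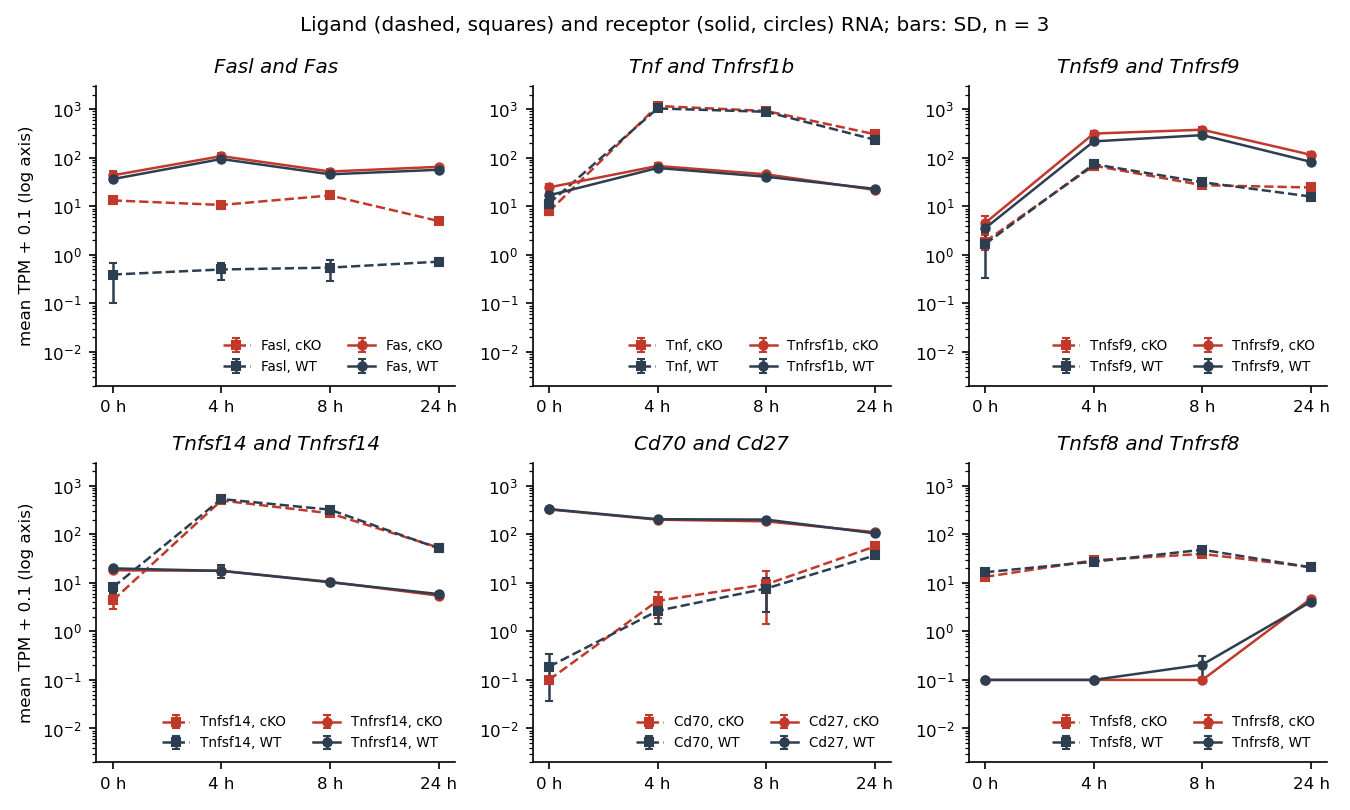
Mean TPM + 0.1 on a log axis for 6 ligands (dashed, squares) and their receptors (solid, circles) over 0, 4, 8 and 24 h in cKO and WT, with SD bars of 3 mice. Of the 6 ligands drawn, Fasl has genotype lines that lie far apart at every time, and Cd70 rises as Cd27 falls.

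Over the list of 17 TNF family ligands, 13 passed the filter on low counts. At 4 h against 0 h, 9 were called higher and 1 lower in cKO, beside 29.6% and 27.6% of all genes, and 8 higher and 1 lower in WT, beside 30% and 29.1%. Between genotypes 1 was called at 0 h (0.445% of all genes), 2 at 4 h (0.82%), 1 at 8 h (0.183%) and 1 at 24 h (0.105%), and Fasl was called each time. DESeq2 called 2, 2, 1 and 1 at the 4 times and limma on log2(TPM + 1) called 2, 3, 1 and 1. The other at 4 h was Tnfsf11, which encodes RANK ligand, at 11.1 ± 1.26 TPM in cKO cells and 37.8 ± 15.5 TPM in WT (log2 −1.81, adjusted p = 0.0178), a call lost in 7 of 16 alternatives. Tnfsf14 at 0 h had a log2 change of −0.89 (adjusted p = 0.0593) and was called lower in cKO in 6 of 16 alternatives, with an adjusted p from 0.00065 to 0.451.

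The lists of signalling genes downstream of the receptors had called members in both directions, as had all genes. Of 24 tested genes of TRAF and ubiquitin signalling, 9 were higher and 7 lower in cKO at 4 h against 0 h, and 11 higher and 7 lower in WT, where 57.2% of all genes were called either way in cKO and 59% in WT. The smallest adjusted p values were those of Traf1, an adaptor bound by several of the TRAF-binding receptors (337 ± 9.78 TPM at 4 h against 107 ± 4.18 at 0 h in cKO, and 319 ± 16.7 against 87.1 ± 5.49 TPM in WT), Birc3, a ubiquitin ligase of the TRAF complex, Tnfaip3, which encodes the NF-kB inhibitor A20, and Traf6. In that order their log2 changes were 1.74, 1.68, 2.61 and 1.52 in the cKO mice and 1.97, 1.80, 2.80 and 1.07 in the WT mice. At 24 h against 0 h, 7 were higher and 16 lower in cKO, beside 37.3% and 39% of all genes, and 6 higher and 15 lower in WT, beside 36.9% and 40.1%. Ikbkb, which encodes the kinase IKK beta, was then at 39.6 TPM in cKO cells and 40.8 TPM in WT, and at 154 TPM in cKO cells and 135 TPM in WT at 0 h. Map3k14, which encodes the kinase NIK of the non-canonical NF-kB pathway, had a log2 change of −2.25 in cKO and −2.03 in WT at 24 h. Between genotypes 1 gene of this list was called at 4 h, Traf4 (lower in cKO, lost in 9 of 16 alternatives), and edgeR called none at 0, 8 or 24 h. At an unadjusted p under 0.05 there were 2, 2 and 0 genes at those 3 times, beside 7.37%, 9.93% and 3.68% of all genes. DESeq2 called 1 at 0 h and 0 at 8 and 24 h, and limma on log2(TPM + 1) called 2 at 0 h and 0 at the other times.

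Of 12 tested genes of death receptor signalling, 4 were higher and 6 lower in cKO at 4 h against 0 h, beside 29.6% and 27.6% of all genes, and 5 higher and 5 lower in WT, beside 30% and 29.1%. Cflar, which encodes the caspase 8 inhibitor FLIP, rose together with Fas, at 106 ± 7.96 TPM at 4 h against 27.0 ± 3.50 at 0 h in cKO and 98.7 ± 15.7 against 25.3 ± 1.28 TPM in WT (log2 1.83 in cKO and 1.65 in WT). At 24 h against 0 h, 7 were higher and 3 lower in each genotype, where 76.3% of all genes were called either way in cKO and 77% in WT. Siva1, which encodes a protein that binds the tail of CD27, was at 328 ± 8.40 TPM at 24 h in cKO and 330.1 ± 10.6 in WT, and at 43.7 ± 1.73 TPM in cKO cells and 45.7 ± 2.16 in WT at 0 h. Casp8, the initiator caspase of death receptors, had a log2 change of −1.13 in cKO and −0.99 in WT. Between genotypes edgeR called none of the 12 at 0, 4, 8 or 24 h. At an unadjusted p under 0.05 there were 1, 1, 0 and 0, beside 7.37%, 11.8%, 9.93% and 3.68% of all genes. DESeq2 called 0, 1, 0 and 0, and limma on log2(TPM + 1) called 0 at each.

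Of 18 further TNF receptor family genes, 12 passed the filter. At 24 h against 0 h, 3 were higher and 6 lower in cKO and 3 higher and 5 lower in WT, a share of the list near or below that of all genes (76.3% in cKO and 77% in WT). Tnfrsf26 was at 11.5 ± 2.96 TPM at 24 h against 141 ± 16.0 at 0 h in cKO, and at 9.92 ± 0.713 against 133 ± 9.43 TPM in WT. Tnfrsf21, which encodes the death domain receptor DR6, was at 11.6 TPM at 24 h in cKO and 10.6 TPM in WT, against 1.42 TPM in cKO cells and 0.793 TPM in WT at 0 h. Between genotypes edgeR called none of the 12 at any time, where it called 0.445%, 0.82%, 0.183% and 0.105% of all genes at 0, 4, 8 and 24 h. At an unadjusted p under 0.05 there were 2, 0, 1 and 0 of this list at 0, 4, 8 and 24 h, beside 7.37%, 11.8%, 9.93% and 3.68% of all genes. DESeq2 and limma on log2(TPM + 1) called 0 at each.

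Across the 24 libraries the gene outside the family with the most similar course was named for each member, by Pearson correlation of TMM-scaled log2 CPM among 6318 genes with a mean of at least 10 TPM. It was Atf3, a transcription factor of the stress response, for Tnfrsf9 (r = 0.992), Mars, a methionyl-tRNA synthetase, for Tnfrsf4 (r = 0.989), Mcm3, a subunit of the replicative helicase, for Tnfrsf8 (r = 0.989) and Noc4l for Tnfrsf18 (r = 0.980). For Tnfrsf1b it was the transporter Abcc1 (r = 0.976), for Fas the tetraspanin Cd82 (r = 0.948), and for Cd27 it was Rbck1, a subunit of the linear ubiquitin ligase (r = 0.980). Rnf111 was nearest to Tnfrsf25 (r = 0.970), Utrn to Tnfrsf14 (r = 0.967) and Pik3cd to Tnfrsf1a (r = 0.889), the lowest of the 10. Tnfrsf8 had 0 counts in 16 of the 18 libraries before 24 h, so its r describes 24 h against the earlier libraries and no finer course. These 24 points share 6 mice and 4 times, so the correlations describe likeness of course over time.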

How the data were processed

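RNA was measured in 24 libraries, 3 mice for each of 8 genotype-by-time groups, and per the labels the mice are separate animals that were each sampled at 4 times. Per the submitters' processing notes, STAR and RSEM were used on mm10 and DESeq2 was also named. Which versions ran is not given in the sources used here. For 23420 genes each deposited file gives, per the file headers, the expected count, RSEM's estimate of a gene's reads, together with TPM, which the authors' RSEM run scaled to a fixed total, and an effective length and FPKM that were not used. The same deposited files give each gene's transcript length in bases, another RSEM estimate, which was used for Fas, Tnfrsf9, Tnfrsf18 and Cd27.

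Rounded expected counts were tested with edgeR 4.0.16 (R 4.3.3), using its low-count filter (11470 genes), TMM scaling and 1 robust quasi-likelihood fit of 8 group means. All 17 comparisons were two-sided, with p-values adjusted by Benjamini and Hochberg over all genes within each, and were called under 0.05. They were cKO over WT at each time, 5 time comparisons in each genotype and 3 interactions. The approximate SE is |log2 fold change| over the root of F. Levels are mean TPM ± SD over 3 mice. Depth was 5846265 to 9700397 expected counts. The ribosomal RNA gene Rn45s took 7.39 to 20.6% of counts and was kept in library sizes.

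Alternatives were DESeq2 1.42.0, its size factors in edgeR, no filter, a filter of 5 CPM in 3 libraries, only the groups compared, removal of Rn45s, limma 3.58.1 on log2(TPM + 1) and on log2(TPM + 0.1), each mouse left out and mouse as a block. The 2 that leave out libraries standing apart on the first principal component were added after seeing the data. Time comparisons pair the same animals. Deviations from the group means of the same mouse at different times had a median correlation of 0.0181 (−0.0846 to 0.163 over 36 pairs). The receptors, the gene lists and the tests were chosen with earlier results of these data known. All members are described, and of each other list up to 4 called genes with the smallest adjusted p were named, besides the ligands of the members. Some genes that this rule names are not reported here. Promoter sequences are RefSeq's on GRCm38.p6, and gene positions are from GENCODE M21 on GRCm38.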

Additional observations from a re-analysis of the deposited data

How the results depend on the processing

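Of 170 results, 10 members in 17 comparisons, 79 were called. Of these 68 were called in every alternative that gave a value, and 11 were lost in at least 1. Of the 91 not called, 8 were called in at least 1. No fold change called in the main analysis changed sign. The number of members called between genotypes at 0 h, 1, was 0 with only the groups compared and 0 in limma on log2(TPM + 1), and ran from 0 to 1 with a mouse left out. At 4 h the number, 0, was 1 in DESeq2, 1 with no filter and 1 with only the groups compared, and ran from 0 to 1 with a mouse left out. At 24 h the 0 became 1 with no filter and 1 with only the groups compared, Tnfrsf9 in both. For the 24 h interaction the 0 became 1 with no filter, Tnfrsf1b. At 8 h against 4 h in WT, 7 members were called, and 4 to 7 with a mouse left out, the lowest without WT mouse 6. In these cases the cause was not tested. With mouse as a replicate block, 8 members were called at 4 h against 0 h in cKO and 8 in WT, as without the block, and no other member's call changed. The genotypes are different mice, so no block was possible between them. The filter of 5 CPM removed Tnfrsf8 from testing. Depth limits Tnfrsf8, with at most 47 counts in a library, and the 3 mice per group limit the precision of genotype differences.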
